A study of Mus musculus with 6 samples.

Results

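Podocytes are the epithelial cells that cover the capillaries of the kidney glomerulus, and 8 genes that mark them were followed in mouse kidneys after 2 kinds of surgery. The genes were taken by symbol from a table of 24346 genes: the slit diaphragm gene Nphs1, the foot process genes Podxl, Synpo, Ptpro and Clic3, the transcription factor genes Wt1 and Tcf21, and the cell cycle inhibitor gene Cdkn1c. RNA came from kidneys of C57BL/6 mice, with 3 libraries from the surgery labelled IVCC and 3 from Sham surgery, and the series concerns renal congestion. The labels do not spell out IVCC, give no age, sex or time after surgery, and do not state whether each replicate is its own animal, so the p-values reflect library-to-library spread, which may be technical. Each of the 8 passed the filter on low values, a mean of 1 FPKM or more, and was tested, with none listed at 0 in any library. FPKM divides the fragments of a gene by its transcript length and by library size, and levels of different genes are set side by side only on that scale, within the limit that values also varied with transcript length between libraries.

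Podocytes send out interlocking foot processes, and the gaps between neighbouring processes are bridged by the slit diaphragm, a junction of nephrin and related proteins that takes part in filtering the blood. An actin skeleton holds the processes in shape, and a coat of negatively charged sialoproteins on the cell surface keeps the gaps open. Mature podocytes rarely divide, and their identity is held by a small set of transcription factors. Podocytes are a small share of the cells of a kidney, so in RNA of the whole organ their genes stand far below those of the tubule. In such bulk samples fewer cells of a type and less RNA per cell cannot be told apart.

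All 8 genes had a higher mean in IVCC than in Sham, by 1.33-fold for Cdkn1c to 1.79-fold for Nphs1 (ratio of mean FPKM). None passed limma's test over all genes, in which each of the 8 had an adjusted p of 0.924. For 3 of them, Synpo, Wt1 and Tcf21, every IVCC library lay above every Sham library, as for 4.09% of all genes tested. For the other 5 the groups overlapped.

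Promoter sequences from RefSeq (GRCm38.p6) are shown for 3 of the 8 genes, since the 8 genes share a cell type and had higher means in the same group. Each runs 5' to 3' on the gene's strand, from 250 bases before to 50 bases after the start site. Capitals mark matches, on either strand, to CANNTG, the E-box bound by basic helix-loop-helix factors such as Tcf21, and to GTGGGNG, a core shared by the zinc finger factors Wt1 and Egr. Searches for TAATTA, a homeodomain motif, and TGTTTAC, a forkhead motif, gave no match in these 3 windows. Nphs1 lies at chr7:30459808-30460107 on the plus strand, Ptpro at chr6:137252049-137252348 on the plus strand and Tcf21 at chr10:22820094-22820393 on the minus strand. The RefSeq start of Nphs1 lies inside the longer gene span that GENCODE gives it.
Nphs1: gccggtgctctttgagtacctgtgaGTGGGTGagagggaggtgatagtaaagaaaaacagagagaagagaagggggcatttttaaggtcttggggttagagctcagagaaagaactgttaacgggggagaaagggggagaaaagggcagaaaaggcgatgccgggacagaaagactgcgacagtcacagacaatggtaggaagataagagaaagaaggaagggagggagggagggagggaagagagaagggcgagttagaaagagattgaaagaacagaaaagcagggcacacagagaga
Ptpro: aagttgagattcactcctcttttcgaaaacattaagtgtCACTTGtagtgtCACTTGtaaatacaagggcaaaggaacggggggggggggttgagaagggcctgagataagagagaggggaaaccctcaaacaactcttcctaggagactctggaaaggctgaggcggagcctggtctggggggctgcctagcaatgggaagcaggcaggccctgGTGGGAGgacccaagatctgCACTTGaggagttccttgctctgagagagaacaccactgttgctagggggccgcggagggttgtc
Tcf21: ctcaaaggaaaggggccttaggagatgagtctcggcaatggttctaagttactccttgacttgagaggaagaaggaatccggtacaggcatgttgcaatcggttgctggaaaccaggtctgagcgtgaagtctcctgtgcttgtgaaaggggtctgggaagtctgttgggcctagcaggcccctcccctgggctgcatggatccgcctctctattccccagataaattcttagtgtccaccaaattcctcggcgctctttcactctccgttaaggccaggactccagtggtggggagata

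The GTGGGNG core was found once each in the Nphs1 and Ptpro windows and not in that of Tcf21, while 31.3% of 27025 promoters of the same length hold it. It began 225 bases before the start site in Nphs1 and 35 before it in Ptpro. E-boxes numbered 3 in Ptpro, with none in Nphs1 or Tcf21, and 72.1% of promoters hold at least 1. TAATTA was present in 5.31% and TGTTTAC in 3.55% of all promoters. The Nphs1 window stands out in base composition: 77.7% of its bases are purines (A or G), against a median of 50.3%, a share that reaches percentile 99.97 of the promoters compared. Ptpro has 60.0% purines and Tcf21 50.7%. These matches describe letters in a window and were not measured as binding.

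Nphs1 (chromosome 7, 30458315 to 30487223, plus strand, GRCm38) encodes nephrin, the adhesion protein whose extracellular domains span the slit. Its level was 4.401, 5.78 and 3.12 FPKM in IVCC replicates 1 to 3 and 2.08, 2.12 and 3.21 FPKM in the Sham replicates of the same numbers. Sham replicate 3 stood above the lowest IVCC library, so the groups overlapped by that 1 pair of libraries. The means were 4.43 ± 1.33 and 2.47 ± 0.640 FPKM (SD, n = 3 each). On the log2(FPKM + 1) scale, on which every log2 fold change is given and which understates changes of low genes, the difference was 0.63 (95% confidence interval 0.13 to 1.14, which like the others is not adjusted for the number of genes, limma unadjusted p = 0.0205). The antisense gene Nphs1os, which overlaps Nphs1, had 0.960, 0.722 and 0.191 FPKM after IVCC, against 0, 0.122 and 0 FPKM after Sham surgery. The libraries were made with a stranded kit, but whether the authors' counting used strand is not given in the sources used here, so reads of the pair may not have been told apart.

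Among the genes of foot processes, Podxl (chromosome 6, 31519488 to 31563981, minus strand) had the highest level of the 8. It encodes podocalyxin, the sialoprotein of the podocyte's apical coat, which endothelial cells also make. Podxl measured 34.7, 41.951 and 22.4 FPKM after IVCC and 22.1, 23.7 and 17.7 FPKM after Sham surgery. IVCC replicate 3 lay within the Sham range, and the other 2 IVCC libraries lay well above it. The log2 fold change was 0.58 (95% confidence interval 0.05 to 1.11, limma unadjusted p = 0.0358).

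Synpo (chromosome 18, 60593973 to 60660142, minus strand) encodes synaptopodin, which binds actin and alpha-actinin in foot processes. Its values of 8.79, 11.026 and 6.93 FPKM in IVCC were all above the 4.61, 5.56 and 4.92 FPKM of Sham. Of the 8 genes it had the smallest unadjusted p (0.00361, limma) and the largest log2 fold change, 0.70 with a 95% confidence interval of 0.31 to 1.09.

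Ptpro (chromosome 6, 137252319 to 137463233, plus strand) encodes a receptor tyrosine phosphatase of the apical podocyte membrane, also known as GLEPP1. It measured 3.58, 3.91 and 2.65 FPKM after IVCC and 1.65, 1.78 and 2.72 FPKM after Sham surgery. As with Nphs1, only Sham replicate 3 and IVCC replicate 3 crossed, here at almost the same level. The log2 fold change was 0.53 (95% confidence interval 0.09 to 0.97, limma unadjusted p = 0.0232).

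Clic3 (chromosome 2, 25456838 to 25458776, plus strand), a gene of the chloride intracellular channel family, had a spread unlike that of the other 7. The IVCC libraries were close together at 10.002, 9.28 and 9.35 FPKM, and the Sham libraries were spread over 2.64, 6.53 and 10.4 FPKM. Sham replicate 3 was thus the highest library of all 6 and Sham replicate 1 the lowest. The log2 fold change of 0.63 had a 95% confidence interval of -0.22 to 1.49 (limma unadjusted p = 0.123), and it was 0.19 without Sham replicate 1 and 1.01 without Sham replicate 3. Clic3 has the shortest transcript of the 8 (median of 799.5 bp over its basic GENCODE M21 transcripts), and with the library sizes given below its values stand for only about 11 reads in Sham replicate 1 and 28.3 to 50.5 reads in the other libraries. It also lies inside the span of Paxx, a gene on the opposite strand.

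**Figure D1:**
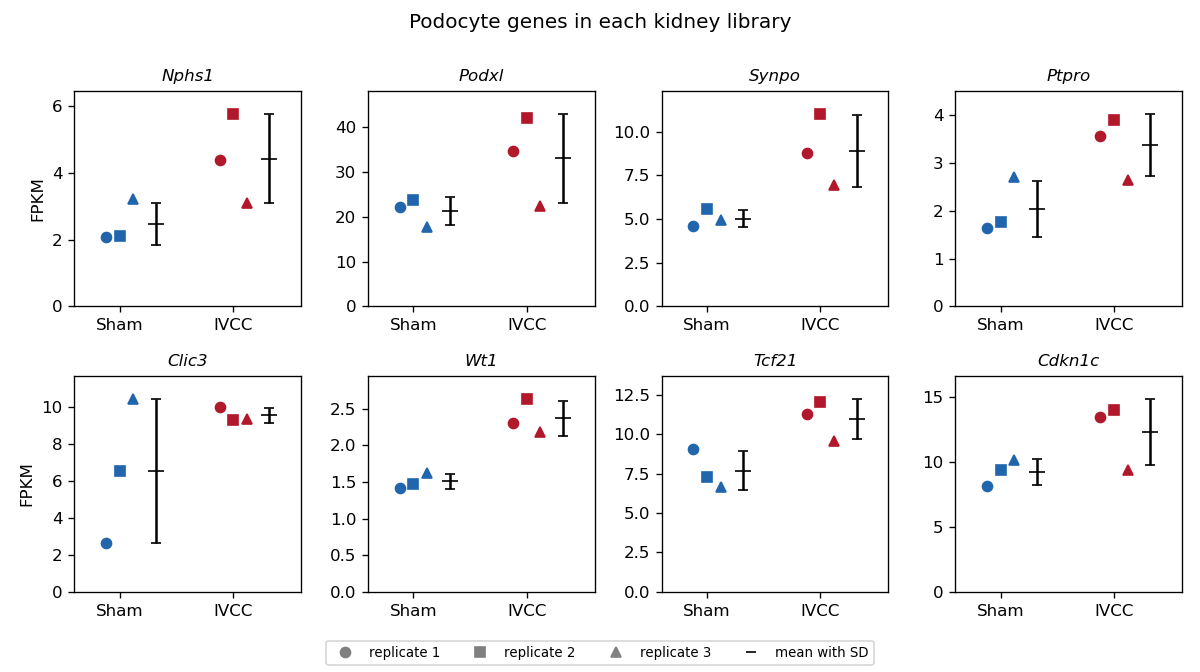
Level of the 8 podocyte genes in FPKM (vertical axes, from 0) in each Sham (blue) and IVCC (red) library, with the replicate number given by the marker and the mean with SD of 3 libraries in black. IVCC replicate 2 is the highest IVCC library for 7 of the 8 genes and IVCC replicate 3 the lowest for 7, and Clic3 in Sham runs from 2.64 to 10.4 FPKM.

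The 3 nuclear factors had smaller fold changes than Synpo and Nphs1. Wt1 (chromosome 2, 105126529 to 105173616, plus strand) encodes the zinc finger factor that podocytes keep from nephron formation into adult life and that activates nephrin and podocalyxin genes. It had the lowest level of the 8, at 2.30, 2.63 and 2.18 FPKM after IVCC and 1.43, 1.48 and 1.63 FPKM after Sham surgery, with no overlap. The log2 fold change was 0.42 (95% confidence interval 0.11 to 0.73, limma unadjusted p = 0.0141), on about 21.8 to 48.6 reads per library. Tcf21 (chromosome 10, 22817281 to 22820174, minus strand), a basic helix-loop-helix factor of podocytes and of stromal fibroblasts, measured 11.2, 12.028 and 9.56 FPKM after IVCC and 9.04, 7.30 and 6.68 FPKM after Sham surgery. Its groups did not overlap either, although Sham replicate 1 was close to IVCC replicate 3, and with TPM scaling the groups did overlap. The log2 fold change was 0.47 (95% confidence interval 0.13 to 0.80, limma unadjusted p = 0.0128). Cdkn1c (chromosome 7, 143458339 to 143461050, minus strand) encodes p57, a cyclin-dependent kinase inhibitor that marks podocytes after they leave the cell cycle. It was at 13.5, 14.0 and 9.38 FPKM after IVCC and 8.19, 9.42 and 10.2 FPKM after Sham surgery, so that IVCC replicate 3 fell inside the Sham range. Its log2 fold change of 0.36 was the smallest of the 8 (95% confidence interval -0.03 to 0.75, limma unadjusted p = 0.0658). Antisense genes overlap Tcf21 and Cdkn1c (Gm10824 and Gm44732).

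Set against all genes, 8 of 8 had a higher fitted value in IVCC, where 48.4% of the 12090 genes tested did. That background depends on scaling: with TPM scaling 79.0% of all genes had a higher fitted value, and again 8 of 8. The unadjusted limma p was under 0.05 for 6 of the 8, all higher in IVCC, beside 1.70% of all genes in that direction. No overlap with IVCC above was found for 3 of the 8 and for 4.09% of all genes. The median log2 fold change was 0.56, and over all genes tested it was -0.01. At the adjusted threshold 0 of 12090 genes were called by limma (0%), while 431 (3.56%) had an unadjusted p under 0.05, and 3 libraries against 3 cannot reach an exact permutation p below 0.1. The members were chosen with earlier results of these data known, so these counts describe the 8 genes and are no test of them.

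The counts leaned on single libraries. Without IVCC replicate 3, 7 of the 8 genes had no overlap (15.5% of all genes), and without Sham replicate 3 6 did (8.33%). Without both libraries numbered 3, which was tried after the data had been seen, all 8 had none (20.5%). An unadjusted limma p under 0.05 was left for 3 of the 8 when IVCC replicate 1 was dropped (0.977% of all genes), for 2 when IVCC replicate 2 was (0.814%) and for 3 when Sham replicate 1 was (1.36%). The direction was the same for all 8 in each of these fits.

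In both groups the genes kept 1 order of mean level. Podxl was first, followed by Cdkn1c, Tcf21, Clic3, Synpo, Nphs1, Ptpro and Wt1. Podxl stood clear of Cdkn1c, Synpo clear of Nphs1 and Ptpro clear of Wt1 in each group, with no overlap of their libraries. Cdkn1c, Tcf21, Clic3 and Synpo followed each other with overlapping ranges, as did Nphs1 and Ptpro, although Nphs1 was above Ptpro in all 3 libraries of each group. The level of Podxl was 10.3 to 16.0 times that of Wt1. Podxl made up 30.8% to 42.8% of the summed level of the 8, and its share was smallest in the libraries numbered 3 of both groups. The sum was 88.5, 100.7 and 65.5 FPKM after IVCC and 51.8, 57.8 and 57.4 FPKM after Sham surgery.

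How far the 8 move together was described by subtracting each gene's mean log2 value over the 6 libraries. The median of the 8 deviations was 0.34, 0.41 and 0.03 in IVCC replicates 1 to 3 and -0.39, -0.23 and -0.10 in the Sham replicates. By this median IVCC replicate 3 stood nearer to Sham replicate 3 than to either of the other IVCC libraries. That did not hold for each gene: Synpo, Wt1, Tcf21 and Clic3 in IVCC replicate 3 lay nearer to another IVCC library than to Sham replicate 3. Yet the nearest library of all was Sham replicate 1 for Tcf21 (0.06 and -0.01) and Sham replicate 2 for Synpo (0.05 and -0.22). Cdkn1c, Ptpro and Wt1 kept closest to the other members, with root mean square differences from the median of the other 7 of 0.11, 0.11 and 0.13. Nphs1 and Synpo differed by 0.17 and 0.18, Tcf21 by 0.24, Podxl by 0.27 and Clic3 by 0.45. Most of the distance of Clic3 came from Sham replicate 1, where it was 0.88 below the others, and Sham replicate 3, where it was 0.58 above them. Podxl, Synpo and Tcf21 went the other way in Sham replicate 3, at 0.47, 0.32 and 0.35 below the others.

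**Figure D2:**
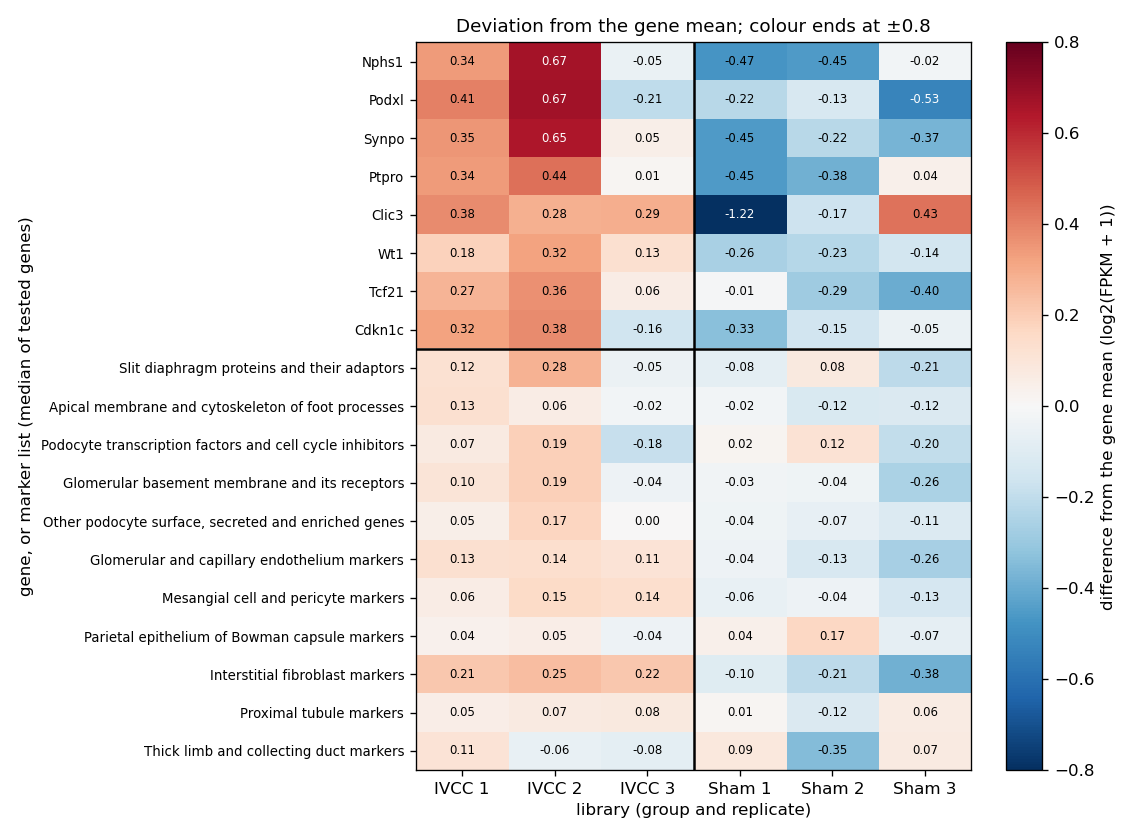
Deviation of log2(FPKM + 1) from the gene's mean over 6 libraries for the 8 podocyte genes, and the median deviation of the tested genes of each marker list, by library (columns, IVCC left and Sham right). IVCC replicates 1 and 2 are above the mean for all 8 genes, from 0.18 to 0.67, and Clic3 is lowest in Sham replicate 1 at -1.22.

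Transcript length moved with the libraries and touches these genes. Among tested genes with transcripts under 1000 bp, the class of Clic3, the median deviation was 0.40 in Sham replicate 3 and 0.16 in IVCC replicate 3, and -0.31 in IVCC replicate 2. For transcripts of 5000 bp and over, the class of Podxl and Synpo, it was -0.24 and -0.10 in those libraries numbered 3 and 0.23 in IVCC replicate 2. Sham replicate 3 was thus high for short transcripts and low for long ones, and IVCC replicate 2 the reverse. Nominal library sizes, estimated from the steps between the lowest values, were 8030000 to 8990000 reads in IVCC and 6040000 to 7230000 reads in Sham, so that each IVCC library was the deeper.

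After each library was corrected for length and GC content, an alternative added after the data had been seen, the median log2 fold change of the 8 was 0.51. Clic3 then had 0.79 in place of 0.63, Podxl 0.46 in place of 0.58 and Synpo 0.61 in place of 0.70. No overlap was found for 5 of the 8, now with Podxl and Clic3, beside 4.78% of all genes. Clic3 did so by only 0.0019 on the log2 scale, between IVCC replicate 3 and Sham replicate 3. With this correction Nphs1, Ptpro and Cdkn1c still overlapped between the groups, and none of the 8 was called by limma (smallest adjusted p = 0.701). With TPM scaling the count was also 5 (5.91%), but in part of other genes. There Podxl, Tcf21 and Cdkn1c overlapped, and Nphs1 and Ptpro did not. The smallest adjusted p of the 8 was then 0.842 (limma).

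**Figure D3:**
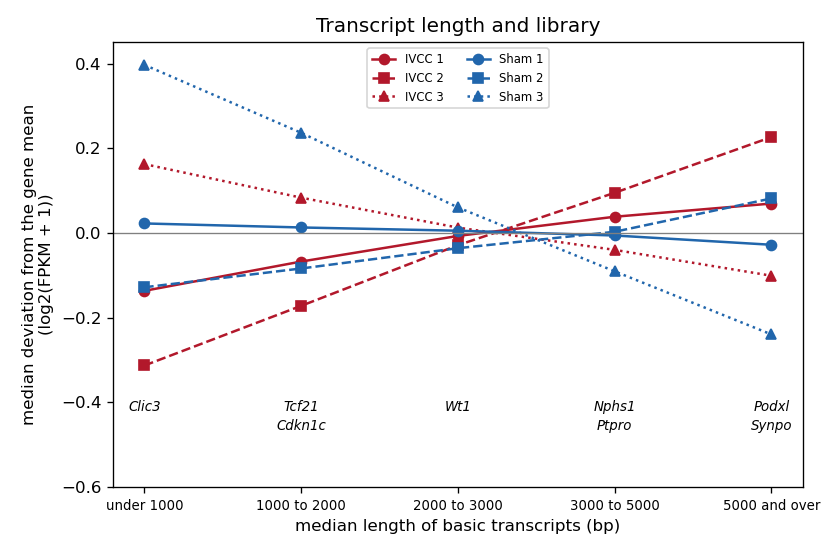
Median deviation of log2(FPKM + 1) from the gene mean in 5 classes of transcript length (horizontal axis, bp), 1 line per library, with the podocyte genes written under their class. Sham replicate 3 goes from 0.40 in the shortest class to -0.24 in the longest, and IVCC replicate 2 from -0.31 to 0.23.

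The other podocyte genes came from 5 lists chosen with earlier results of these data known. Leaving out the 8, they hold 69 genes, of which 57 were tested, 51 with a higher fitted value in IVCC (48.4% of all genes tested) and 6 lower. Of the 57, 6 had an unadjusted limma p under 0.05, all higher in IVCC (1.70%), 8 had no overlap with IVCC above (4.09%), and 0 passed the adjusted threshold (smallest adjusted p = 0.924, limma). The median log2 fold change was 0.14, against 0.56 for the 8 genes and -0.01 for all genes. With TPM scaling 56 of the 57 had a higher fitted value, beside 79.0% of all genes. With the length and GC correction it was 43 of 57, beside 46.3% of all genes, and the median of the 57 was 0.07 in place of 0.14. Many of these 69 are also made by tubule or vessel cells.

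In the slit diaphragm list, 9 of 9 tested genes had higher fitted values, beside 48.4% of all genes tested, with a median log2 fold change of 0.21. With the length and GC correction 8 of 9 were higher, beside 46.3% of all genes, and the median was 0.16. Kirrel, which encodes the nephrin partner Neph1, stayed under the filter, at 0.991 ± 0.156 FPKM after IVCC and 0.605 ± 0.172 FPKM after Sham surgery. The scaffold gene Magi2 averaged 1.46 ± 0.402 and 0.953 ± 0.268 FPKM, the junction gene Tjp1 6.05 ± 1.38 and 4.76 ± 1.19 FPKM, and the kinase gene Fyn 2.52 ± 0.474 and 1.86 ± 0.431 FPKM. Cd2ap, an adaptor also present in tubule cells, was nearly level at 21.9 ± 3.29 and 19.9 ± 3.39 FPKM, and these 4 genes overlapped between the groups. The length and GC correction moved the log2 fold change from 0.29 to 0.16 for Tjp1, from 0.33 to 0.21 for Magi2 and from 0.13 to 0.07 for Cd2ap.

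Among the remaining genes of foot processes, 14 of 15 tested had higher fitted values, beside 48.4% of all genes tested, with a median of 0.12. With the length and GC correction 12 of 15 were higher, beside 46.3% of all genes. Ddn, which encodes dendrin, a slit diaphragm protein that can move to the nucleus, had 3.65, 3.80 and 2.54 FPKM after IVCC and 1.69, 1.56 and 1.93 FPKM after Sham surgery. The groups did not overlap, and the log2 fold change was 0.66 (limma unadjusted p = 0.00395). The intermediate filament gene Nes averaged 4.26 ± 0.953 and 2.70 ± 0.314 FPKM, and the myosin gene Myh9 27.5 ± 2.90 and 22.1 ± 1.73 FPKM, both without overlap. Clic5, a relative of Clic3 that ties ezrin to the podocyte membrane, averaged 22.5 ± 3.94 and 18.5 ± 3.05 FPKM, and the alpha-actinin gene Actn4 108.2 ± 4.89 and 99.8 ± 10.5 FPKM, both with overlap. With the length and GC correction the log2 fold change was 0.18 in place of 0.30 for Myh9, 0.16 in place of 0.27 for Clic5 and 0.06 in place of 0.12 for Actn4.

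The list of other transcription factors and cell cycle inhibitors was mixed, with 6 of 8 tested genes higher, beside 48.4% of all genes tested, 2 lower and a median of 0.14. Lmx1b, a homeodomain factor of podocytes, was under the filter, at 0.597, 0.346 and 0.107 FPKM after IVCC and listed at 0 in all 3 Sham libraries, which can be a failed estimate. Foxc1 went the other way, at 1.31, 1.42 and 1.72 FPKM after IVCC and 1.57, 2.51 and 3.08 FPKM after Sham surgery (log2 fold change -0.43, limma unadjusted p = 0.0627). Its relative Foxc2 averaged 1.20 ± 0.196 and 0.984 ± 0.222 FPKM, Dach1 3.48 ± 0.984 and 2.82 ± 0.303 FPKM, and Klf6 8.32 ± 2.46 and 7.01 ± 2.39 FPKM. For Klf6 the sign turned without Sham replicate 3 (log2 fold change -0.041 in place of 0.23). With the length and GC correction Dach1 had 0.11 in place of 0.21, and Foxc2 0.07 in place of 0.15.

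Genes of the glomerular basement membrane, on which podocytes stand, had higher fitted values for 11 of 12, beside 48.4% of all genes tested. The median was 0.13, with 0 at an unadjusted limma p under 0.05. With the length and GC correction 8 of 12 were higher and the median was 0.02. Col4a5 averaged 7.03 ± 0.842 FPKM after IVCC and 5.65 ± 0.579 FPKM after Sham surgery, and the integrin gene Itga3 8.19 ± 0.679 and 7.24 ± 0.363 FPKM, both without overlap. The correction left Col4a5 a log2 fold change of 0.14 in place of 0.27 and Itga3 0.07 in place of 0.16. Lamc1, a laminin chain, averaged 5.12 ± 0.690 and 4.21 ± 0.708 FPKM, and the dystroglycan gene Dag1 22.8 ± 4.01 and 19.3 ± 2.06 FPKM. Col4a3 averaged 33.4 ± 8.64 and 31.1 ± 13 FPKM, and its log2 fold change of 0.15 became -0.0051 with that correction, -0.015 without IVCC replicate 2 and -0.19 without Sham replicate 3.

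Of surface and secreted genes 11 of 13 tested had higher fitted values, beside 48.4% of all genes tested, with a median of 0.10. With the length and GC correction 9 of 13 were higher, beside 46.3% of all genes. Sema3g, a semaphorin secreted by podocytes and arterial endothelium, had 9.68, 12.1 and 7.91 FPKM after IVCC and 5.58, 5.50 and 3.49 FPKM after Sham surgery. Its log2 fold change of 0.90 (95% confidence interval 0.43 to 1.37, limma unadjusted p = 0.00251) was above that of each of the 8 genes, and its groups did not overlap. The natriuretic peptide receptor gene Npr3 averaged 2.87 ± 0.544 and 1.91 ± 0.346 FPKM, without overlap. Rab3b, a vesicle GTPase gene, averaged 1.46 ± 0.312 and 0.814 ± 0.558 FPKM, and Enpep, an aminopeptidase of podocytes and proximal tubules, 50.1 ± 7.99 and 42.5 ± 1.55 FPKM. Vegfa, the endothelial growth factor that podocytes and tubules secrete, averaged 85.0 ± 3.78 and 82.1 ± 25.2 FPKM, and its log2 fold change of 0.10 became -0.15 without Sham replicate 3.

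**Figure D4:**
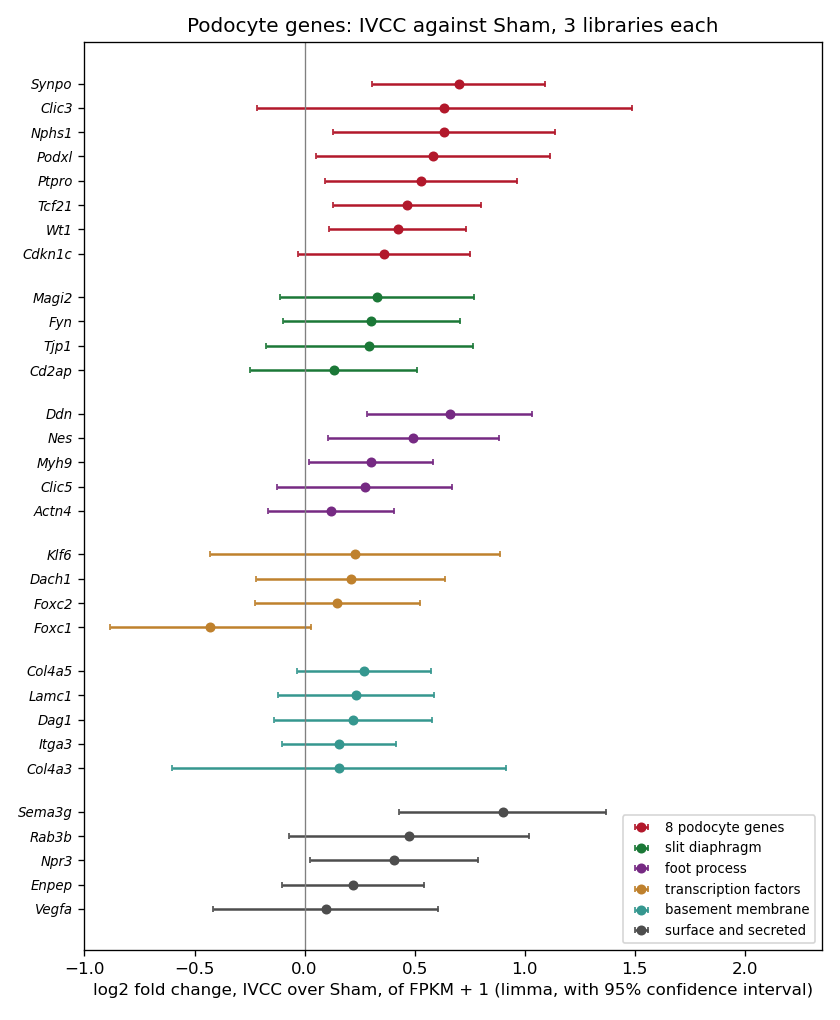
Log2 fold change of FPKM + 1, IVCC over Sham, from limma with its unadjusted 95% confidence interval (3 libraries per group), for the 8 podocyte genes (red) and the other tested genes named from 5 wider podocyte lists. The intervals of 6 of the 8 lie above 0, while those of Clic3 and Cdkn1c cross it, as does that of Foxc1 at -0.43.

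Markers of some other cells also had higher values in IVCC, and their part in the result was not tested. Among capillary endothelial markers 12 of 14 tested had higher fitted values (48.4% of all genes) and 5 had no overlap with IVCC above (4.09% of all genes), with a median of 0.29, and the summed level of the list was 206.8 to 214.2 FPKM after IVCC and 172 to 188.7 FPKM after Sham surgery, with Gata5 listed at 0 in 1 Sham library. Plat averaged 14.8 ± 2.79 and 9.02 ± 0.619 FPKM, and Pecam1 15.6 ± 0.287 and 11.8 ± 0.993 FPKM. Mesangial and pericyte markers were higher for 8 of 9, 3 of them without overlap (median 0.18), with sums of 56.4 to 59.9 and 41.6 to 53.2 FPKM, and the smallest p-values were those of Pdgfrb at 6.33 ± 0.440 and 4.14 ± 1.22 FPKM and Itga8 at 2.75 ± 0.341 and 1.90 ± 0.240 FPKM. Markers of fibroblasts, which also use Tcf21, were higher for 4 of 5 tested, and these 4 had no overlap and an unadjusted limma p under 0.05 (1.70% of all genes in that direction), with a median of 0.51 close to the 0.56 of the podocyte genes. With the length and GC correction the medians were 0.40 for fibroblast, 0.26 for endothelial and 0.23 for mesangial markers, and 0.51 for the podocyte genes. The fibroblast markers had sums of 37.8 to 44.4 and 34.0 to 37.7 FPKM, and Col3a1 and Col1a2 had the smallest p-values. Dcn, the tested gene that was lower, averaged 18.2 ± 2.55 FPKM after IVCC and 20.0 ± 0.554 FPKM after Sham surgery. Among markers under the filter, Clec3b (0.239 ± 0.152 and 1.23 ± 0.401 FPKM) and Mfap5 (0.225 ± 0.066 and 0.367 ± 0.032 FPKM) lay below Sham without overlap. Lum lay above Sham without overlap, at 0.920 ± 0.116 and 0.634 ± 0.165 FPKM, and Dpt overlapped. In these 3 lists IVCC replicate 3 was above the mean (medians of 0.11, 0.14 and 0.22), while the median of the 8 podocyte genes was 0.03 there.

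Parietal epithelial markers of Bowman's capsule were split, 4 higher and 2 lower, with sums of 136.4 to 150 FPKM after IVCC and 143.8 to 159.4 FPKM after Sham surgery. The smallest p-values were those of Pax8, at 36.5 ± 3.80 and 42.2 ± 4.08 FPKM, and Cldn1, at 4.80 ± 0.555 and 3.90 ± 0.894 FPKM. Mesothelial cells also use Wt1. Their 4 markers summed to 0.284 to 0.443 FPKM after IVCC and 0.072 to 1.57 FPKM after Sham surgery, 0 of them passed the filter, and 3 were listed at 0 in at least 1 library (Upk3b, Lrrn4 and Upk1b). Proximal tubule markers overlapped in sum, at 7783 to 9904 and 7566 to 10430.2 FPKM (8 higher and 4 lower, median 0.07), with Slc4a4 and Slc5a2 having the smallest p. Thick limb and collecting duct markers were 6 higher and 4 lower (median 0.02), with sums of 1885 to 2186 and 1521 to 2609 FPKM, and Egf and Scnn1g had the smallest p. Slc14a2 of that list was under the filter and listed at 0 in 3 libraries. It measured 0, 0.043 and 0 FPKM after IVCC and 1.115, 0 and 0.3 FPKM after Sham surgery.

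Outside all lists, the genes whose deviations over the 6 libraries lay nearest to the median of the 8 were Myrf, Gldc, Col8a1, Lyz1 and C1qtnf1, with root mean square differences of 0.078 to 0.097 against a median of 0.34 over the 12090 genes. Myrf, a membrane-bound transcription factor gene, measured 3.49, 3.44 and 2.65 FPKM after IVCC and 1.71, 2.43 and 2.34 FPKM after Sham surgery. Gldc, which encodes the decarboxylase of the glycine cleavage system, averaged 31.7 ± 6.77 and 23.3 ± 2.36 FPKM. Col8a1 averaged 1.38 ± 0.351 and 0.694 ± 0.318 FPKM and C1qtnf1 3.18 ± 0.395 and 2.31 ± 0.263 FPKM. Lyz1, at 3.39 ± 0.462 and 1.97 ± 0.579 FPKM, is a near-identical copy of Lyz2, so its value is uncertain. Of the 8, which make up that median, 5 were among the 100 nearest genes. Nes had rank 3 of all genes tested and the endothelial marker Plat rank 9, ahead of Nphs1 and Synpo.

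Over 19 other settings each of the 8 genes kept a higher fitted value in IVCC wherever it was tested, with log2 fold changes from 0.18 to 1.02 and 0 of 149 pairs of gene and setting past the adjusted threshold of 0.05 (limma). The filters, the variance models and the replicate block cannot change a gene's log2 fold change here, so their pairs repeat the value of another fit. Among the 149 pairs the smallest adjusted p, 0.0856 (limma), came from the replicate block.

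**Figure D5:**
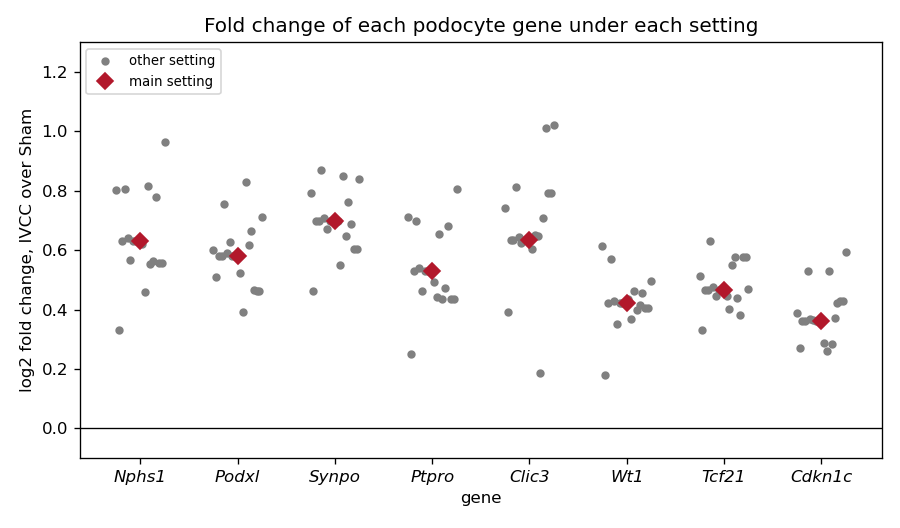
Log2 fold change, IVCC over Sham, of each of the 8 podocyte genes in the main setting (red diamond) and in the other settings in which it was tested (grey points). All points lie above 0, from 0.18 to 1.02, and those of Clic3 are the most spread. Points of the filters, variance models and replicate block repeat the value of another fit.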

How the data were processed

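RNA of mouse kidneys, in 6 libraries (3 IVCC, 3 Sham, grouped and numbered by their titles), was prepared with a stranded mRNA kit and sequenced from 1 end for 75 bases (per the labels' protocols). The values are FPKM as deposited by the authors, 1 column per library. The submitters' processing notes name Cufflinks 2.2.1, TopHat2 2.0.13, SAMtools 0.1.19, Bowtie2 2.2.3 and the build mm10, without roles. For annotation, filters and library scaling nothing is given in the sources used here.

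FPKM carry no read totals. Nominal library sizes were those at which most values under 0.1 FPKM of genes with 1 transcript of 1500 to 5000 bp were whole reads, within 0.1 read and for an assumed fragment of 200 bp (81.2% to 86.2% of 239 to 362 values per library). This was not whole enough for a count test.

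The 12090 genes averaging 1 FPKM or more were tested two-sided on log2(FPKM + 1) by limma (version 3.58.1, R 4.3.3, moderated variances with a trend) with Benjamini-Hochberg adjustment over all of them at 0.05. The fit was tested on simulated data. The 8 genes, the lists and the rules were chosen with earlier results of these data known. Named were all 8 genes, the 4 genes of smallest p per wider podocyte list (2 per other list), 8 genes fixed by name, and the 5 nearest profiles outside the lists without predicted and small RNA genes. Other settings were pseudocounts of 0.1 and 5, no filter or 5 FPKM, 3 scalings, 2 variance models, the replicate block and each library left out, and, added later, the length and GC correction (alone and with the block) and leaving out both libraries numbered 3. That correction subtracted natural-spline fits of each library's deviations on log2 transcript length and GC content from GENCODE M21 (GRCm38, the assembly mm10 names), known for 99.3% of tested genes. Gene coordinates are from the same annotation and promoters from RefSeq. Some genes and sequences that these rules name are not reported here.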

Additional observations from a re-analysis of the deposited data

How the results depend on the processing

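All 8 podocyte genes had higher fitted values in IVCC under the settings tried, except that only 5 of them were tested with a filter at 5 FPKM (5 of 5 higher). The filters, variance models and replicate block could not change this direction. Their median log2 fold change of 0.56 was 0.33 with a pseudocount of 5, 0.73 with TPM scaling and 0.76 without the libraries numbered 3, and 0.42 to 0.65 with 1 library left out. The number of the 8 genes without overlap was 3 in the main setting (4.09% of all genes, IVCC above). It was 5 with TPM scaling (5.91%) and 5 with the length and GC correction (4.78%, also with the block). It was 8 without the libraries numbered 3 (20.5%), and 3 to 7 with 1 library left out. In those last fits 720 (without IVCC replicate 2) to 1876 (without IVCC replicate 3) of all genes had none, beside 495 in the main setting. With TPM scaling Tcf21 overlapped, and Nphs1, Ptpro and Clic3 did not. That scaling divides each value by the FPKM sum of its library. In replicates 1 to 3 the sums were 768192, 719896 and 927860 for IVCC and 854859, 775720 and 1118258 for Sham. TPM scaling moved the median of all genes by over 0.1, to 0.15, and split the genes with an unadjusted limma p under 0.05 into 262 higher and 82 lower, against 205 and 226. Genes past limma's adjusted threshold, 0 in the main setting, were 23 with no filter, 0 to 4 with 1 library left out, 4 without the libraries numbered 3, and 1 with that correction and the block. None of the 8 genes was among them. The count at an unadjusted p under 0.05, 431, was 935 with no filter, 282 at 5 FPKM, 1057 without the libraries numbered 3, and 214 to 1039 with 1 library left out. The cause of these shifts was not tested.

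Adding a replicate block gave a count of 2388, and 1650 when length and GC content were corrected too. The median of the 8 genes, 0.56 and 0.51, cannot change with a block in this balanced design. A pairing of libraries by replicate number was not established: the correlation over genes of the deviations from the group means was -0.11, 0.34 and 0.32 for the numbers 1 to 3, so that the numbers 2 and 3 correlated best with their own number and IVCC replicate 1 best with Sham replicate 2 (0.068). Of 690 pairs of other named genes and settings 7 changed sign. With 1 library left out the log2 fold change of Klf6 ran from -0.041 (without Sham replicate 3) to 0.46, that of Vegfa from -0.15 (without Sham replicate 3) to 0.30, and that of Col4a3 from -0.19 (without Sham replicate 3) to 0.44, with -0.015 without IVCC replicate 2. Vegfa had -0.13 without the libraries numbered 3 and Col4a3 -0.0051 with the length and GC correction, also with the block. Depth limits the lowest members, Wt1 and Clic3 in Sham, with about 21.8 and 11 nominal reads in Sham replicate 1.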
